A study of Mus musculus with 9 samples.

Results

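The mouse mitochondrial genome encodes 37 transcripts, namely 13 messenger RNAs, 2 ribosomal RNAs and 22 transfer RNAs, and all of them were followed here among the 55385 gene IDs measured in each kidney. The rule takes every gene whose symbol begins with mt-, and uses no measured value. The kidneys were those of C57BL/6 mice, with 3 biological repeats in each of 3 groups. A first group was examined 3 days and a second 7 days after intraperitoneal cisplatin at 20 mg/kg, and the sham group received saline. Whole kidney RNA was sequenced in bulk, and the authors deposited FPKM, which is fragments mapped to a gene, scaled for its transcript length and for the total of mapped fragments in the library. Cisplatin is a platinum compound that damages DNA and injures the kidney tubule. The labels give no age, sex or sham day, so the sham kidneys stand for no particular time after injection. Whether ribosomal RNA was depleted or polyadenylated RNA was selected is not given in the sources used here.

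Mitochondrial DNA is a small circle that is copied into long RNAs from both strands. The heavy-strand promoters give both rRNAs, most tRNAs and all mRNAs except mt-Nd6, and the light-strand promoter gives mt-Nd6 and the other tRNAs. These long RNAs are cut mainly at the tRNAs that lie between the genes, so neighbouring genes begin as parts of the same molecule and reach different levels afterwards. The proteins are core subunits of respiratory complexes I, III and IV and of ATP synthase, and all other subunits of these complexes come from nuclear genes. Proximal tubule cells are packed with mitochondria and depend on respiration for transport.

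The labels state a minimum RNA integrity for all libraries and give no value per library. The FPKM of a library summed to between 421810 and 509537, and between 11 and 12 of the 20 highest genes in each library were mitochondrial. Correlations of log2(FPKM + 1) between libraries of a group lay between 0.942 and 0.980. Tests were fitted over 13718 genes, and all 37 mitochondrial genes passed the filter, a level of 1 FPKM or more in 3 or more libraries. An adjusted p under 0.05 (limma, Benjamini-Hochberg over every tested gene) is the meaning of "rose", "fell" and "called" below. By that rule 8214 genes were called at day 3 against sham, 4075 at day 7 against sham and 7603 (55.4%) at day 7 against day 3, so a call by itself was common. Fold changes are on the log2(FPKM + 1) scale with the standard error from limma.

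Mitochondrial transcripts held between 25.6% and 32.6% of the deposited FPKM of a library. Their summed share was 27.1, 31.8 and 29.2% at day 3, 32.2, 31.7 and 32.6% at day 7 and 27.3, 25.6 and 25.9% in sham. All day 7 libraries except the lowest lay above every day 3 library, and all 3 lay above every sham library, while day 3 and sham overlapped. The 13 mRNAs took 24.8, 27.6 and 24.6% at day 3, 30.8, 30.3 and 31.2% at day 7 and 26.1, 24.6 and 24.7% in sham. For these mRNAs the means were 25.7 ± 1.69% at day 3, 30.7 ± 0.428% at day 7 and 25.2 ± 0.844% in sham (SD, n = 3 each). The mean difference was 0.482 percentage points at day 3 against sham (exact two-sided permutation p = 0.8), 5.57 points at day 7 against sham (exact p = 0.1) and 5.09 points at day 7 against day 3 (exact p = 0.1). With 3 libraries against 3 the smallest p that this test can give is 0.1.

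The rRNA share was highest at day 3 and the tRNA share at day 7. The 2 rRNAs held 1.62, 3.15 and 3.73% of the FPKM at day 3, 0.412, 0.38 and 0.399% at day 7 and 0.351, 0.296 and 0.527% in sham, with every day 3 library above all the others. The day 3 mean was 2.84 ± 1.09% and the sham mean 0.391 ± 0.121% (SD, n = 3 each; difference 2.45 points, exact p = 0.1), and day 7 differed from sham by 0.006 points (exact p = 1.0). The 22 tRNAs held 0.726, 0.998 and 0.851% at day 3, 1.06, 1.001 and 1.01% at day 7 and 0.775, 0.645 and 0.665% in sham. Their day 7 libraries lay above all day 3 and all sham libraries (exact p = 0.1 for each), and day 3 and sham overlapped (exact p = 0.2).

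**Figure D1:**
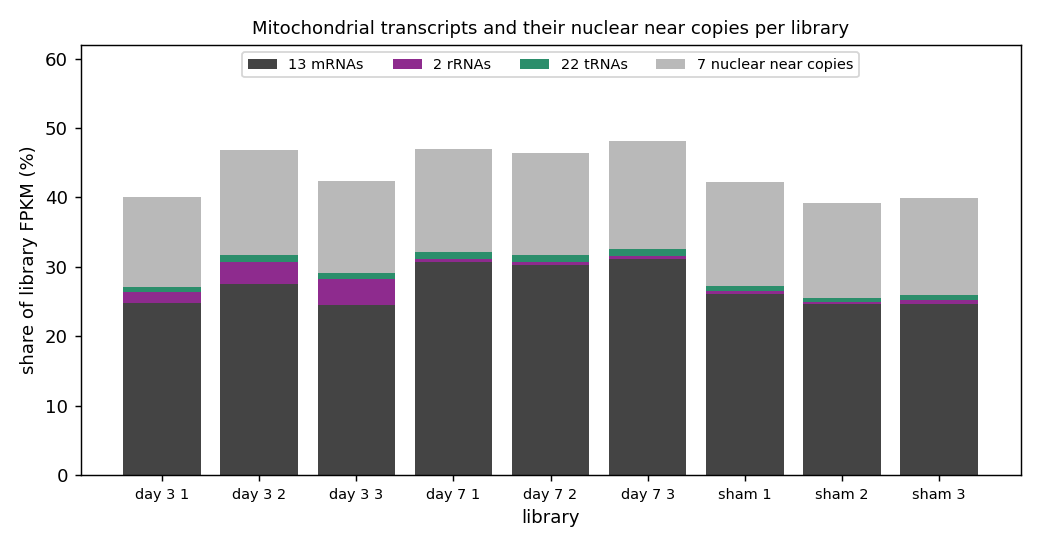
Stacked bars give, for each library, the percent of the summed FPKM held by the 13 mRNAs, the 2 rRNAs, the 22 tRNAs and the 7 nuclear near copies described in the text, with day 3, day 7 and sham libraries from left to right. The rRNA segment is visible mainly at day 3, where it reached 3.73%, and the mRNA segment is tallest at day 7, between 30.3% and 31.2%.

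These levels carry a limit that was set when reads were assigned. On chromosome 1, at chr1:24611535-24616197 of GRCm38 on the minus strand, 7 annotated pseudogenes in a row are copies of a stretch of mitochondrial DNA inserted in the nuclear genome. Over the aligned bases 5 of them are identical to the mitochondrial gene (Gm28439 to mt-Nd4, Gm10222 to mt-Nd4l, Gm28437 to mt-Co3, Gm10925 to mt-Atp6 and Gm28661 to mt-Co2). Gm28438 matches mt-Nd3 at 99.7% and Gm29216 matches mt-Co1 at 99.8%. Each of these last pairs differs at 1 base, T3C between mt-Nd3 and Gm28438 and A1066T between mt-Co1 and Gm29216, where the mitochondrial base comes first and positions count from 1 at the 5′ end of the mitochondrial transcript. The bases around both differences show how little separates the copies. In the lines below, from GENCODE M21 transcripts on GRCm38 and written 5′ to 3′ on the transcribed strand, the capital marks the base that differs. The windows are chrM:6390-6423 and chrM:9459-9491 on the plus strand and chr1:24616155-24616188 and chr1:24613087-24613119 on the minus strand.
mt-Co1: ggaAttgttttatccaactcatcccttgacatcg
Gm29216: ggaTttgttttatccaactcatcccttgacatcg
mt-Nd3: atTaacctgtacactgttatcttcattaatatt
Gm28438: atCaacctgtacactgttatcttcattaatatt

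Of the 7 near copies 4 were listed at almost the level of the mitochondrial gene. mt-Co3 had 10140.1, 11195 and 10228 FPKM at day 3, 14768, 13215 and 14530.3 FPKM at day 7 and 15835, 14601 and 13379 FPKM in sham, and Gm28437 had 9351, 10929.9 and 10019 FPKM at day 3, 14205, 12618 and 14342 FPKM at day 7 and 15733, 14307 and 13235 FPKM in sham. The ratio of copy to gene lay between 0.922 and 0.994 for this pair over the 9 libraries. It lay between 0.914 and 1.01 for Gm10222 over mt-Nd4l, between 0.930 and 1.0 for Gm28438 over mt-Nd3 and between 0.920 and 1.0 for Gm28661 over mt-Co2. Gm29216, which covers only bases 1063 to 1545 of mt-Co1, stood at 0.502 to 0.912 of it, and Gm28439, which covers bases 1 to 876 of mt-Nd4, at 0.306 to 0.513. Gm10925 exceeded mt-Atp6 in every library, at 4.52 to 5.17 times its level. Since the pairs are identical or differ at 1 base, most reads from them cannot be told apart, and how the authors divided such reads is not given in the sources used here. The 4 further annotated copies, at 95.2% to 97.6% identity, stayed far lower: Gm13339, Gm13340 and Gm13341 reached at most 62.9 FPKM, and Gm4076 at most 0.53 FPKM.

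Together the 7 near copies held 12.96, 15.1 and 13.3% of the FPKM at day 3, 14.8, 14.7 and 15.5% at day 7 and 14.96, 13.7 and 13.98% in sham. Counted with the mitochondrial genes they brought the share to 43.1 ± 3.42% at day 3, 47.2 ± 0.834% at day 7 and 40.5 ± 1.56% in sham (SD, n = 3 each). Differences of these sums had an exact permutation p of 0.2 for day 3 against sham and 0.1 for day 7 against sham. Levels of the 7 genes that have a near copy are therefore lower bounds of what was read from either locus, and the fits, shares and ratios on them were repeated with the copy added in proportion to its length. That repeat, chosen after seeing the data, ended the call for mt-Atp6 at day 3 (log2 fold change -0.37, adjusted p = 0.0753) and added a call for mt-Nd4 at day 7 (0.49, adjusted p = 0.0352). It left the other calls of the fit on these 7 genes as given below, and ratios and shares that it moved are named beside them. mt-Nd1, mt-Nd2, mt-Nd5, mt-Nd6, mt-Cytb, mt-Atp8 and both rRNAs had no annotated nuclear copy of at least 200 bases at 99% identity or above. The tRNAs, shorter than that, were not searched. mt-Ts1, mt-Td, mt-Tk, mt-Tg and mt-Tr lie between mitochondrial genes whose copies stand in that row on chromosome 1. Their levels may therefore carry the same limit. mt-Atp8 lies between mt-Co2 and mt-Atp6, and the 43 bases that it shares with mt-Atp6 are within Gm10925. Bases between Gm10925, which ends at chr1:24614651, and Gm28661, which starts at chr1:24614885, were not searched for it. The level of mt-Atp8 may therefore carry the same limit.

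**Figure D2:**
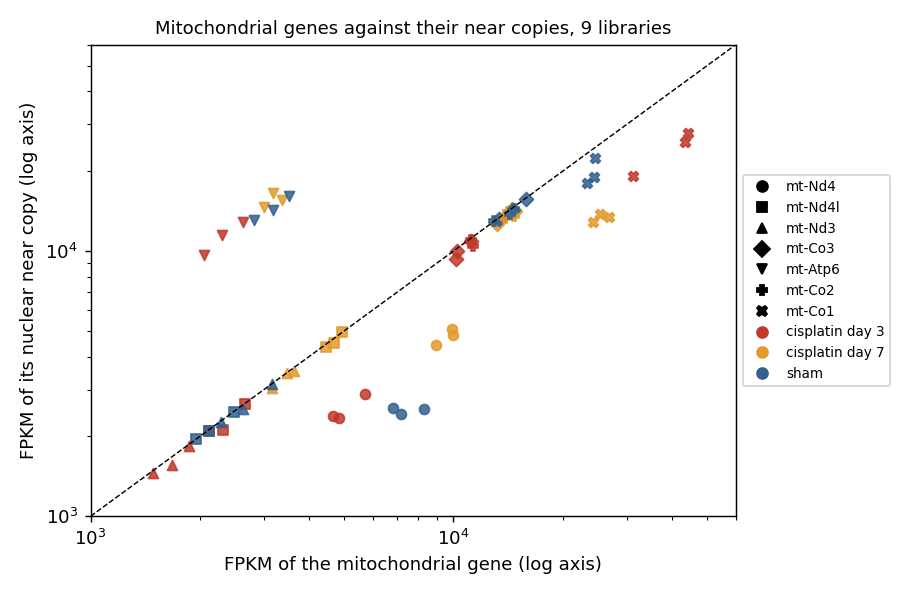
Each point is 1 library, with the FPKM of a mitochondrial gene on the horizontal axis and that of its nuclear near copy on the vertical axis (both log), colour giving the group and shape the gene pair, and the dashed line marking equality. mt-Nd4l, mt-Nd3, mt-Co3 and mt-Co2 lie on or close to the line, mt-Atp6 far above it, and mt-Nd4 and mt-Co1 below it.

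The 2 ribosomal RNAs of the mitochondrial ribosome showed the largest rise at day 3 among the 37 transcripts. mt-Rnr1, the 12S rRNA of the small subunit (chrM:70-1024, plus strand), had 4101, 9203 and 10336 FPKM at day 3, 933, 829 and 911 FPKM at day 7 and 1088, 893 and 1454 FPKM in sham. Every day 3 library stood above all other libraries, and day 7 and sham overlapped. mt-Rnr1 rose at day 3 (log2 fold change 2.70 ± 0.33 SE, adjusted p = 0.000177) and was not called at day 7 (log2 fold change -0.33 ± 0.33 SE, adjusted p = 0.486). Over all tested genes 59.9% were called at day 3 and 29.7% at day 7. mt-Rnr2, the 16S rRNA of the large subunit (chrM:1094-2675, plus strand), had 2753, 5941 and 7702 FPKM at day 3, 1014, 859 and 940.4 FPKM at day 7 and 700.1, 566 and 1018 FPKM in sham. It rose at day 3 by about the same amount (log2 fold change 2.76 ± 0.36 SE, adjusted p = 0.000244) and was not called at day 7 (log2 fold change 0.34 ± 0.36 SE, adjusted p = 0.516). At day 7 against day 3 both fell (log2 fold change -3.04, adjusted p = 0.000119, and -2.42, adjusted p = 0.000588). Of 2 rRNAs, 0 were called at day 7 against sham by limma and 0 had an unadjusted p under 0.05, and quantile normalization called mt-Rnr2 there (log2 fold change 0.98, adjusted p = 0.0158).

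Set against the mRNAs of the same library, the rRNA sum was 0.0656, 0.114 and 0.152 of the mRNA sum at day 3, 0.0134, 0.0125 and 0.0128 at day 7 and 0.0134, 0.012 and 0.0213 in sham. The ratio was 6.91-fold higher at day 3 than in sham and 0.855-fold at day 7 (exact permutation p = 0.1 and 0.6). The ratio of 12S to 16S rRNA was lowest at day 7. mt-Rnr1 over mt-Rnr2 was 1.49, 1.55 and 1.34 at day 3, 0.92, 0.966 and 0.969 at day 7 and 1.55, 1.58 and 1.43 in sham. All day 7 libraries lay under 1 and all others above it. This ratio was chosen after the values were seen and is given without a test.

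Other RNAs that lack a long poly(A) tail also differed between libraries. The summed FPKM of 354 nuclear genes annotated as rRNA was 308, 744 and 4789 at day 3, 171, 117 and 299 at day 7 and 834, 431 and 1322 in sham, and that of 5 RNA polymerase III transcripts (Rn7sk, Rn7s1, Rn7s2, Rmrp and Rpph1) was 99.99, 212 and 826 at day 3, 44.0, 54.0 and 55.2 at day 7 and 109, 62.2 and 318 in sham. These sums were chosen after their values were seen. In the nuclear rRNA sum day 3 library 1 lay under all sham libraries. Within day 3 that library was the lowest in both sums and in both mitochondrial rRNAs. Day 3 library 3 had the highest value in all of these sums and the highest level of both mitochondrial rRNAs. The part of such RNA classes in the mitochondrial rRNA levels was not tested.

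The 13 mRNAs did not move together at day 3. Of them 2 rose, 6 fell and 5 were not called, where 39.3% of all tested genes were called higher and 20.6% lower, with a median log2 fold change of -0.33 where the median of all tested genes was 0.25. A correction for GC content and length gave 0 rises and 10 falls among them (median -0.88), with or without the replicate block, and a fit without the filter on low values called 0 of 13. With the correction alone 3979 of all 13707 tested genes were called higher and 3755 lower (median 0.03). Without the filter 7233 of all 32394 tested genes were called higher and 2890 lower. mt-Co1, the catalytic subunit of complex IV (chrM:5328-6872, plus strand), had 31275, 44318 and 43399 FPKM at day 3, 25285, 24249 and 26818 FPKM at day 7 and 24537, 23399 and 24415 FPKM in sham. The 3 day 3 libraries were above all others, and day 7 and sham overlapped. mt-Co1 rose at day 3 (log2 fold change 0.70 ± 0.17 SE, adjusted p = 0.0059) and was not called at day 7 against sham (log2 fold change 0.08 ± 0.17 SE, adjusted p = 0.761). The day 3 call was lost when libraries were scaled by the median of ratios (0.40, adjusted p = 0.101), after the correction for GC content and length (0.24, adjusted p = 0.299) and without the filter (adjusted p = 0.446). Over all 22 alternatives its log2 fold change at day 3 lay between 0.24 and 0.86, with adjusted p up to 0.446.

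mt-Cytb, the only mitochondrial subunit of complex III (chrM:14145-15288, plus strand), went the other way, with 7679.7, 9312 and 7883 FPKM at day 3, 18213, 15696 and 17402 FPKM at day 7 and 16866, 15486 and 14318 FPKM in sham. Every day 3 library was below all others. mt-Cytb fell at day 3 (log2 fold change -0.91 ± 0.14 SE, adjusted p = 0.000628) and was not called at day 7 against sham (log2 fold change 0.14, adjusted p = 0.503). The day 3 call was lost without the filter (adjusted p = 0.155) and kept in the other 21 alternatives. Within each library mt-Co1 over mt-Cytb was 4.07, 4.76 and 5.5 at day 3, 1.39, 1.54 and 1.54 at day 7 and 1.46, 1.51 and 1.71 in sham, a ratio that does not depend on how libraries are scaled. It was 3.05-fold higher at day 3 than in sham, with no overlap, and as a pair chosen after the values were seen it has no test. With near copies added it was 2.89-fold higher at day 3 than in sham, and all day 7 values, 1.63 to 1.81, then lay under all sham values, 1.88 to 2.13.

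Complex I, which takes electrons from NADH, has 7 mitochondrial subunits, and at day 3 mt-Nd2, mt-Nd3 and mt-Nd4 fell, mt-Nd5 rose, and mt-Nd1, mt-Nd4l and mt-Nd6 were not called. mt-Nd2 (chrM:3914-4951, plus strand) had 5342, 6437 and 5544 FPKM at day 3, 11180.0, 10374 and 10875 FPKM at day 7 and 10554, 9477 and 9360.3 FPKM in sham. Day 3 stood below both other groups without overlap, and the day 3 fall was a log2 fold change of -0.77 ± 0.13 SE (adjusted p = 0.000984). mt-Nd4 had 4840.3, 5711 and 4653 FPKM at day 3, 9973, 8962 and 9895 FPKM at day 7 and 8282, 7185 and 6796 FPKM in sham, and its groups at day 3, in sham and at day 7 followed in that order without overlap. mt-Nd3 had 1674, 1871 and 1489 FPKM at day 3, 3643, 3157 and 3473 FPKM at day 7 and 3164, 2624 and 2282 FPKM in sham, with day 3 below both other groups. mt-Nd4 and mt-Nd3 fell at day 3 by 0.55 ± 0.14 and 0.67 ± 0.16 SE on the log2 scale (adjusted p = 0.00848 and 0.00522). Without the filter on low values the falls of mt-Nd2, mt-Nd4 and mt-Nd3 were not called (adjusted p = 0.14, 0.255 and 0.0572), and with quantile normalization those of mt-Nd2 and mt-Nd4 were not (0.0784 and 0.181). Near copies added with nuclear scaling also ended the call on mt-Nd4 (0.154). mt-Nd5 had 2932, 3791 and 3252 FPKM at day 3, 4564, 4217 and 4440.3 FPKM at day 7 and 2795, 2434 and 2569.9 FPKM in sham, so that every cisplatin library was above every sham library. Its day 3 rise was small (log2 fold change 0.35 ± 0.13 SE, adjusted p = 0.0478). That rise changed call in 16 of 22 alternatives, among them the fits that left out sham library 2 or 3 (adjusted p = 0.147 and 0.0931), day 3 library 2 or 3 (adjusted p = 0.152 and 0.0874) or any day 7 library (adjusted p between 0.0624 and 0.0754). After correction for GC content its sign turned (-0.12).

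mt-Nd1 had 13450.5, 16256 and 14214 FPKM at day 3, 15613, 15341 and 15294 FPKM at day 7 and 15471, 12270.2 and 11098 FPKM in sham, with all groups overlapping, and was called in neither cisplatin group against sham (adjusted p = 0.333 at day 3 and 0.238 at day 7). mt-Nd6, the only mRNA from the light strand, had 4597, 5694 and 4617 FPKM at day 3, 7346, 6729 and 7023 FPKM at day 7 and 7904, 5764 and 5292 FPKM in sham. It was not called against sham (log2 fold change -0.33 at day 3, adjusted p = 0.132, and 0.17 at day 7, adjusted p = 0.488). Its ratio to the sum of the 12 heavy-strand mRNAs was 0.046, 0.0449 and 0.0404 at day 3, 0.0532, 0.0526 and 0.051 at day 7 and 0.0631, 0.0499 and 0.0478 in sham. All day 3 ratios lay under all sham and all day 7 ratios (exact permutation p = 0.1 for each), and day 7 overlapped sham (exact p = 1.0). With near copies added the day 3 and sham ratios overlapped, at 0.0289 to 0.0327 and 0.0326 to 0.0427 (exact p = 0.2). Because the strand setting of the counting is unstated, reads from the opposite strand of mt-Nd6 cannot be told apart from its own.

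In the remaining subunits of complex IV and in ATP synthase, which makes ATP from the proton gradient, the day 3 differences were modest. mt-Co3 had the values given above beside its near copy, and day 3 lay below both other groups. mt-Co3 fell at day 3 (log2 fold change -0.47 ± 0.13 SE, adjusted p = 0.0125), a call lost without the filter (adjusted p = 0.444), with quantile normalization (-0.10, adjusted p = 0.502) and with near copies added and nuclear scaling (adjusted p = 0.0852). mt-Co2 had 11312, 13887 and 11210.0 FPKM at day 3, 14663, 13830.2 and 14127 FPKM at day 7 and 14721, 14276 and 12916 FPKM in sham and was not called at day 3 (log2 fold change -0.21, adjusted p = 0.221) or at day 7 (0.03, adjusted p = 0.908). mt-Atp6, which forms part of the proton channel, had 2048, 2631 and 2303 FPKM at day 3, 3361, 3009 and 3187 FPKM at day 7 and 3520.3, 3174 and 2823 FPKM in sham. It fell at day 3 (log2 fold change -0.45 ± 0.14 SE, adjusted p = 0.0225), a call lost without sham library 1, sham library 2, day 3 library 1 or day 3 library 3 (adjusted p between 0.0553 and 0.0621) and with its near copy added. mt-Atp8 had 6921, 8779 and 7948 FPKM at day 3, 12010.1, 11323 and 12681 FPKM at day 7 and 7627, 8477 and 8317 FPKM in sham, and was not called at day 3 (log2 fold change -0.05, adjusted p = 0.76).

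**Figure D3:**
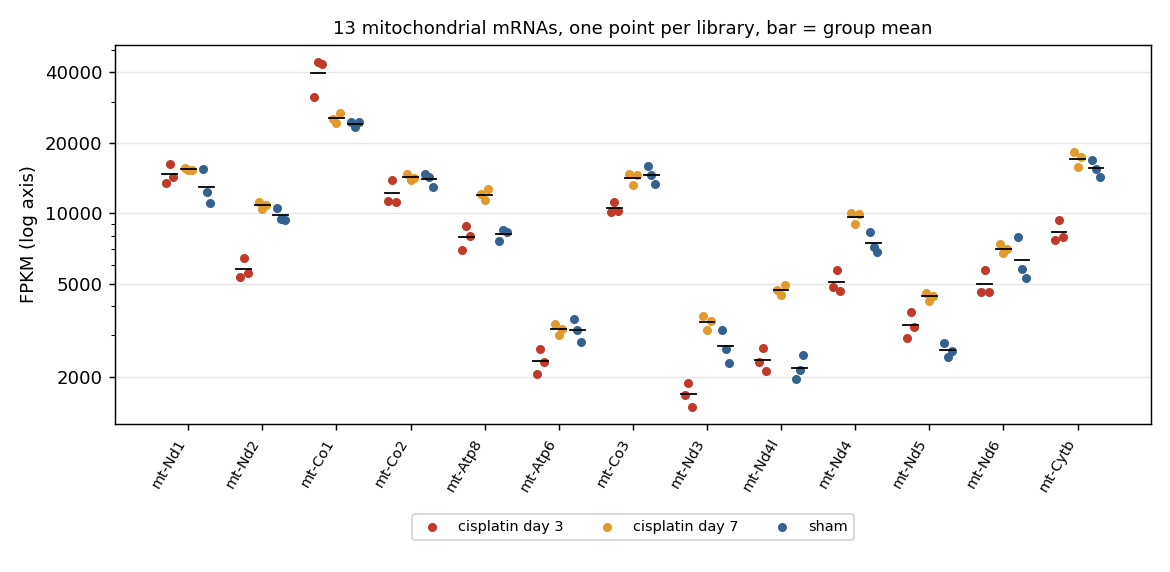
Points give the FPKM (log axis) of the 13 mRNAs in each library, in gene order, for day 3, day 7 and sham, and bars the group means. Day 3 points of mt-Co1 lie above the others, those of mt-Nd2 and mt-Cytb below, and the day 7 points of mt-Nd4l, mt-Nd5 and mt-Atp8 lie above both other groups.

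At day 7 against sham 3 mRNAs rose, 0 fell and 10 were not called, where 19.3% of all tested genes were called higher and 10.4% lower, with a median log2 fold change of 0.175 where that of all tested genes was 0.06. mt-Nd4l, a small complex I subunit, had 2316, 2659.7 and 2122 FPKM at day 3, 4674, 4468 and 4918 FPKM at day 7 and 1949.8, 2127 and 2482 FPKM in sham. Its day 7 libraries lay above all others, and day 3 overlapped sham. mt-Nd4l rose at day 7 (log2 fold change 1.11 ± 0.14 SE, adjusted p = 0.00174), and the call changed in 1 of 22 alternatives (adjusted p = 0.0501 with the replicate number as a block and the GC correction together). mt-Nd5 rose as well (log2 fold change 0.76 ± 0.13 SE, adjusted p = 0.00446), and so did mt-Atp8, a small subunit of ATP synthase (log2 fold change 0.56 ± 0.14 SE, adjusted p = 0.0163). The mt-Atp8 call was lost when day 7 library 1 or day 7 library 3 was left out (adjusted p = 0.0543 and 0.0644) and with median-of-ratios scaling (0.0724). The calls on mt-Nd5 and mt-Atp8 were both lost with quantile normalization (adjusted p = 0.149 and 0.091) and without the filter (0.0923 and 0.487). Quantile normalization called a fall of mt-Atp6 there (log2 fold change -0.42, adjusted p = 0.0438). Each of the 3 was lower in all sham libraries than in all day 7 libraries. After the correction for GC content and length only mt-Nd4l stayed called at day 7, where the same correction called 918 genes over the whole table, 655 of them in the same direction as among the 4075 called without it. Its share of higher genes among the calls was 45.4%, in place of 64.9%.

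Between the cisplatin times 10 mRNAs were higher at day 7 than at day 3, 1 was lower and 2 were not called, where 21.7% of all tested genes were called higher and 33.7% lower. The exception was mt-Co1 (log2 fold change -0.62 ± 0.17 SE, adjusted p = 0.0115). mt-Cytb rose most (log2 fold change 1.05 ± 0.14 SE, adjusted p = 0.000347), followed by mt-Nd3 (1.03, adjusted p = 0.000621), mt-Nd4l (0.99, adjusted p = 0.000444), mt-Nd4 (0.93, adjusted p = 0.00063) and mt-Nd2 (0.91, adjusted p = 0.000459). mt-Atp8 rose by 0.61 on the log2 scale. The rises of mt-Nd6 (0.51), mt-Atp6 (0.46), mt-Co3 (0.43) and mt-Nd5 (0.41) were smaller. Leaving out day 3 library 3, day 7 library 1 or day 7 library 3 reduced the 11 calls to 7, and mt-Nd6, mt-Atp6, mt-Co3 and mt-Nd5 were the mRNAs that lost a call in any fit without 1 library. The mt-Co1 call was lost in 3 of 22 alternatives (adjusted p up to 0.523). These fits share libraries with the contrasts against sham.

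Scaling bears on the balance of rises and falls. The median of all tested genes at day 3 was 0.25 above 0 on the log2 scale as deposited and 0.03 after median-of-ratios scaling, and with that scaling the share of higher genes among all calls was 50.8% in place of 65.6%. Under it 0 mitochondrial mRNAs rose and 8 fell at day 3, 2 rose and 0 fell at day 7, and 11 rose and 0 fell at day 7 against day 3. Of all 13718 tested genes it called 4083 higher and 3951 lower at day 3, and 2245 higher and 2227 lower at day 7. At day 7 against day 3 it called 3742 higher and 3744 lower. When instead the genes outside the mitochondrial set were scaled to equal sums, 2 rose and 5 fell at day 3, and 6 rose and 0 fell at day 7. This scaling moved the whole table upward. Of all 13718 tested genes 6021 were then called higher and 2273 lower at day 3 (median log2 fold change 0.36). At day 7 the counts were 3642 higher and 652 lower (median 0.21).

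The make-up of the mitochondrial mRNA pool does not depend on scaling between libraries. mt-Co1 made up 29.9, 33.4 and 36.5% of the FPKM of the 13 mRNAs at day 3, 17.4, 18 and 18.5% at day 7 and 18.4, 19.3 and 21% in sham. mt-Cytb made up 7.35, 7.03 and 6.63% at day 3, 12.5, 11.7 and 12% at day 7 and 12.7, 12.8 and 12.3% in sham. At day 3 the shares of 11 of 13 mRNAs did not overlap sham, with 3 higher (mt-Co1, mt-Nd1 and mt-Nd5) and 8 lower, where the FPKM of 64% of all tested genes did not overlap between these groups (42.1% higher and 21.8% lower). The 13 shares sum to 100%, so a larger share of mt-Co1 alone lowers the others. Among the 12 mRNAs other than mt-Co1, a sum chosen after the values were seen, 11 shares did not overlap sham at day 3. Of these mt-Nd1, mt-Nd5, mt-Co2, mt-Atp8 and mt-Nd4l were higher and mt-Nd2, mt-Nd3, mt-Nd4, mt-Cytb, mt-Co3 and mt-Atp6 lower, while mt-Nd6 overlapped sham. The mean share of mt-Co1 was 33.3 ± 3.30% at day 3 and 19.6 ± 1.33% in sham (SD, n = 3 each), and that of mt-Cytb was 7.00 ± 0.358% and 12.6 ± 0.223% in the same order of groups. At day 7, 8 of 13 shares did not overlap sham, with mt-Nd4l, mt-Nd5, mt-Atp8 and mt-Nd4 higher and mt-Nd2, mt-Co2, mt-Co3 and mt-Atp6 lower, where the FPKM of 48.7% of all tested genes did not overlap (29.5% higher and 19.1% lower). Each non-overlapping share has an unadjusted exact permutation p of 0.1, the smallest possible, among 13 shares compared at each time. With near copies added the mean share of mt-Co1 was 28.6% at day 3, 14.9% at day 7 and 17.1% in sham. The shares that did not overlap sham then numbered 10 at day 3 (3 higher and 7 lower) and 8 at day 7, where mt-Atp8, mt-Nd3, mt-Nd4, mt-Nd5 and mt-Nd4l were higher and mt-Co1, mt-Co2 and mt-Co3 lower.

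Genes that are joined on 1 transcript had different ratios in cisplatin and sham kidneys. mt-Atp8 and mt-Atp6 share 43 bases and mt-Nd4l and mt-Nd4 share 7, and each pair stays together as a bicistronic mRNA. mt-Atp8 over mt-Atp6 was 3.38, 3.34 and 3.45 at day 3, 3.57, 3.76 and 3.98 at day 7 and 2.17, 2.67 and 2.95 in sham. mt-Nd4l over mt-Nd4 was 0.478, 0.466 and 0.456 at day 3, 0.469, 0.498 and 0.497 at day 7 and 0.235, 0.296 and 0.365 in sham. In both pairs every cisplatin library had a higher ratio than every sham library. The pairs were chosen after the values were seen and are given without a test. This held with near copies added, although the level of the first ratio then moved below 1. mt-Atp8 over mt-Atp6 was 0.592, 0.569 and 0.577 at day 3, 0.635, 0.643 and 0.647 at day 7 and 0.39, 0.486 and 0.524 in sham with the copy added to mt-Atp6. Nothing was added to mt-Atp8, for which no annotated copy was found, so this changes only the lower term of the ratio. On the same values mt-Nd4l over mt-Nd4 was 1.44-fold higher at day 3 and 1.52-fold higher at day 7 than in sham. mt-Atp8 and mt-Nd4l are 204 and 297 bases long and the shortest of the 13 mRNA genes, and the part of gene length in these ratios was not tested.

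The tRNAs showed the sharpest contrast between neighbours. A cluster of 3 tRNAs for isoleucine, glutamine and methionine (mt-Ti, mt-Tq and mt-Tm, chrM:3706-3913) precedes mt-Nd2. A cluster for tryptophan, alanine, asparagine, cysteine and tyrosine (mt-Tw, mt-Ta, mt-Tn, mt-Tc and mt-Ty, chrM:4950-5326) follows it, and its last 4 members are encoded on the minus strand as light-strand transcripts. All 7 sequences below are printed because the finding turns on these short genes. They are read from GENCODE M21 on GRCm38, 5′ to 3′ on the transcribed strand, with the anticodon in capitals. mt-Ti is at chrM:3706-3774 and mt-Tm at chrM:3845-3913 on the plus strand. mt-Tq is at chrM:3772-3842, mt-Ta at chrM:5018-5086, mt-Tn at chrM:5089-5159, mt-Tc at chrM:5192-5257 and mt-Ty at chrM:5260-5326, all on the minus strand.
mt-Ti: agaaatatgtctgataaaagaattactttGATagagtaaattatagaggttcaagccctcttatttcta
mt-Tq: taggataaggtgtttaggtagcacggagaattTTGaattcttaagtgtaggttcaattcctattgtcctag
mt-Tm: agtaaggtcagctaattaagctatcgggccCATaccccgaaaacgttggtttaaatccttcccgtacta
mt-Ta: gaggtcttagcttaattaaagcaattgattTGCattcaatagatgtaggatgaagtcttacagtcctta
mt-Tn: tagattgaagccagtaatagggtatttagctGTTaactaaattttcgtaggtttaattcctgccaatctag
mt-Tc: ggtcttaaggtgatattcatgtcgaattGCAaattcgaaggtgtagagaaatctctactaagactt
mt-Ty: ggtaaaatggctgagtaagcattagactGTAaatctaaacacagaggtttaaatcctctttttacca

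The cluster before mt-Nd2 fell at day 3. mt-Ti had 42.7, 60.5 and 53.7 FPKM at day 3, 182, 166 and 177 FPKM at day 7 and 136, 153 and 168 FPKM in sham. mt-Tm had 24.2, 23.9 and 15.3 FPKM at day 3, 135, 155 and 162 FPKM at day 7 and 65.8, 83.5 and 90.2 FPKM in sham, and mt-Tq, from the opposite strand, had 5.32, 6.16 and 4.37 FPKM at day 3, 26.8, 35.3 and 30.1 FPKM at day 7 and 14.3, 21.1 and 22.3 FPKM in sham. In all 3 genes every day 3 library was below every other library, and for mt-Tq and mt-Tm day 7 was above sham without overlap. mt-Ti fell by 1.53 ± 0.15 SE on the log2 scale (adjusted p = 4.76e-05), mt-Tq by 1.67 ± 0.19 (adjusted p = 0.000116) and mt-Tm by 1.89 ± 0.20 (adjusted p = 7.17e-05), and the 3 calls held in all 22 alternatives. The 4 light-strand tRNAs behind mt-Nd2 rose at the same time. mt-Tn had 279, 632 and 617 FPKM at day 3, 185, 176 and 156 FPKM at day 7 and 141, 82.4 and 111 FPKM in sham. mt-Ta had 162, 368 and 349 FPKM at day 3, 120.2, 110.2 and 103 FPKM at day 7 and 101, 61.9 and 82.7 FPKM in sham, and mt-Tc had 188, 430.3 and 459 FPKM at day 3, 159, 148 and 136 FPKM at day 7 and 113, 61.8 and 95.7 FPKM in sham. Day 3 was above both other groups in these 3, and day 3 library 1 was the lowest of its group, as it was for the rRNAs.

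Their rises at day 3 were 2.12 ± 0.32 SE on the log2 scale for mt-Tn (adjusted p = 0.000508), 1.92 ± 0.34 for mt-Tc (adjusted p = 0.00134) and 1.76 ± 0.31 for mt-Ta (adjusted p = 0.00115). The mt-Tn call held in all 22 alternatives, and those of mt-Ta and mt-Tc in 21, being lost with the GC correction and the replicate block together (0.90 and 1.01, adjusted p = 0.0636 and 0.0529). mt-Ty had 115, 289 and 329.6 FPKM at day 3, 167, 137 and 144 FPKM at day 7 and 126, 78.99 and 131 FPKM in sham, overlapped sham at day 3 and was called there (log2 fold change 1.02 ± 0.37 SE, adjusted p = 0.0407). That call changed in 14 of 22 alternatives, and adjusted p was between 0.0527 and 0.136 without any of the sham libraries, day 3 library 2, day 3 library 3 or any of the day 7 libraries. The summed level of mt-Ta, mt-Tn, mt-Tc and mt-Ty over that of mt-Ti, mt-Tq and mt-Tm was 10.3, 19 and 23.9 at day 3, 1.84, 1.6 and 1.46 at day 7 and 2.23, 1.11 and 1.5 in sham. It was 10.8-fold higher at day 3 than in sham and 1.05-fold at day 7. These 7 genes were grouped after their values were seen, so the ratio is a description with no test. As for mt-Nd6, reads from the opposite strand of these genes cannot be told apart from their own. mt-Tw, the heavy-strand member of the second cluster, had 26.7, 53.9 and 34.9 FPKM at day 3, 47.1, 51.5 and 48.4 FPKM at day 7 and 32.6, 25.4 and 27.7 FPKM in sham and was not called at day 3 (log2 fold change 0.37, adjusted p = 0.186).

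**Figure D4:**
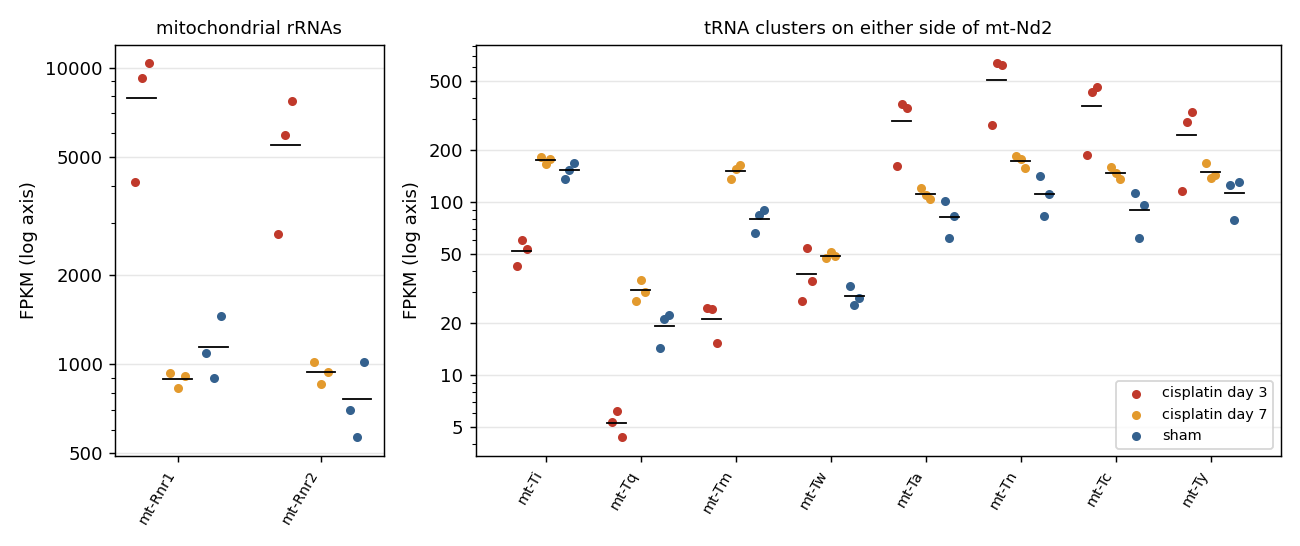
Points give FPKM (log axis) of the 2 rRNAs and of 8 tRNAs beside mt-Nd2 in each library for day 3, day 7 and sham, and bars the group means. Day 3 points of the rRNAs and of mt-Ta, mt-Tn and mt-Tc lie above both other groups, and those of mt-Ti, mt-Tq and mt-Tm lie below them.

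Over all 22 tRNAs, 8 rose, 7 fell and 7 were not called at day 3, where 39.3% of all tested genes were called higher and 20.6% lower, with a median log2 fold change of -0.155 where that of all tested genes was 0.25. The share of rises, 8 of 22, is near that of all tested genes. After the correction for GC content and length 4 rose and 9 fell (median -0.877), and with the replicate block as well 2 rose and 9 fell. Of all 13707 tested genes 3919 were called higher and 3692 lower with the block, and 3979 and 3755 with the correction alone. With that correction the calls on mt-Ty, mt-Tp, mt-Tf and mt-Tv were lost (adjusted p = 0.783, 0.724, 0.0774 and 0.337). The other rises were mt-Tl1, the leucine tRNA beside mt-Rnr2 (log2 fold change 1.41 ± 0.22 SE, adjusted p = 0.000598), mt-Tf (1.59, adjusted p = 0.00157) and mt-Tv (1.42, adjusted p = 0.0169), which flank mt-Rnr1, and mt-Tp (0.80, adjusted p = 0.000435). mt-Tf and mt-Tv were weak, with 2.76, 7.34 and 7.09 FPKM at day 3, 1.95, 1.53 and 1.9 FPKM at day 7 and 1.32, 0.69 and 1.36 FPKM in sham for mt-Tf and 2.69, 7.0 and 8.78 FPKM at day 3, 1.34, 1.32 and 0.75 FPKM at day 7 and 0.42, 2.14 and 2.39 FPKM in sham for mt-Tv. The mt-Tv call was lost when day 3 library 2 or day 3 library 3 was left out (adjusted p = 0.0563 and 0.0604). The other falls were mt-Tg (log2 fold change -1.39 ± 0.29 SE, adjusted p = 0.00317), mt-Th (-1.68, adjusted p = 0.0135), mt-Tl2 (-1.95, adjusted p = 0.0463) and mt-Te (-0.68, adjusted p = 0.0178). mt-Tg, for glycine, had 20.5, 31.5 and 27.3 FPKM at day 3, 47.1, 50.9 and 54.7 FPKM at day 7 and 41.6, 94.3 and 87.3 FPKM in sham, and mt-Tp, for proline, had 500.1, 638 and 545 FPKM at day 3, 384, 373 and 391.98 FPKM at day 7 and 323, 305 and 332 FPKM in sham. mt-Tg was below and mt-Tp above sham in all day 3 libraries. Because mt-Tg lies between mt-Co3 and mt-Nd3, its level may carry the limit given for the near copies. mt-Te, the glutamate tRNA beside mt-Nd6, was the most abundant tRNA, with 1169.7, 1362 and 985 FPKM at day 3, 2971, 2404 and 2737 FPKM at day 7 and 2466, 1673 and 1557 FPKM in sham. Its day 3 call was lost without day 3 library 3 (adjusted p = 0.0637). By strand, 5 of 8 light-strand tRNAs rose and 2 fell at day 3, and 3 of 14 heavy-strand tRNAs rose and 5 fell. Strand here is that of the annotated gene. Since the strand setting of the counting is unstated, the reads behind these counts may come from either strand.

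mt-Tr, mt-Th, mt-Ts2 and mt-Tl2, which lie near each other around mt-Nd4, were uneven in sham. mt-Th had 7.81, 14.6 and 23.01 FPKM at day 3, 62.2, 68.2 and 55.2 FPKM at day 7 and 22.3, 79.4 and 56.8 FPKM in sham, and mt-Tl2 had 2.86, 9.25 and 10.04 FPKM at day 3, 28.3, 38.1 and 28.7 FPKM at day 7 and 6.86, 60.9 and 50.3 FPKM in sham. mt-Tr had 13.8, 19.6 and 23.3 FPKM at day 3, 32.4, 39.2 and 36.6 FPKM at day 7 and 10.9, 69.2 and 61.2 FPKM in sham, and mt-Ts2 had 4.74, 5.07 and 13.1 FPKM at day 3, 41.9, 46.9 and 33.2 FPKM at day 7 and 9.98, 60.7 and 0.22 FPKM in sham. Sham library 1 was the lowest sham library for mt-Tr, mt-Th and mt-Tl2, and for mt-Ts2 sham library 3 was. mt-Th and mt-Tl2 overlapped sham at day 3, and the call on mt-Tl2 was lost without any 1 of sham library 2, sham library 3 and the cisplatin libraries (adjusted p between 0.0565 and 0.156). Without sham library 1 mt-Tr was called at day 3 (log2 fold change -1.76, adjusted p = 0.000266). The tRNAs not yet given, mt-Ts1, mt-Td, mt-Tk and mt-Tt, lay between 3.16 and 32.5 FPKM and were not called in any comparison, nor was mt-Ts2. In alternatives mt-Ts1 was called lower at day 7 without sham library 3 (adjusted p = 0.0381) and with the replicate block (0.0304).

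At day 7 against sham 4 tRNAs rose, 0 fell and 18 were not called, where 19.3% of all tested genes were called higher and 10.4% lower. Their share of rises, 4 of 22, is thus near that of all tested genes. Without sham library 1 mt-Tg and mt-Tr were called lower (log2 fold change -0.83 and -0.84, adjusted p = 0.0145 and 0.0229). The 4 rises with all libraries kept were mt-Tm (log2 fold change 0.92 ± 0.20 SE, adjusted p = 0.00995), mt-Tl1 (0.77, adjusted p = 0.0291), mt-Tq (0.67, adjusted p = 0.0297) and mt-Tw (0.77, adjusted p = 0.0332). mt-Tl1 had 450.1, 787 and 579 FPKM at day 3, 363, 398 and 372 FPKM at day 7 and 282, 193 and 199 FPKM in sham, with the groups in that order from high to low and no overlap. Leaving out 1 library left between 1 and 6 tRNA calls at day 7, and the correction for GC content left 0. mt-Tl1 and mt-Tw were lost without sham library 2 (adjusted p = 0.0983 and 0.105), sham library 3 (0.0747 and 0.0717) or any day 7 library, and mt-Tq without sham library 1 (0.0647), sham library 2 (0.0535), day 7 library 2 (0.0985) or day 7 library 3 (0.0739). At day 7 against day 3, 7 tRNAs rose and 7 fell, led by mt-Tm (2.80), mt-Tq (2.34) and mt-Ti (1.73) among the rises and by mt-Tv (-1.64), mt-Tn (-1.47) and mt-Ta (-1.30) among the falls. The tRNA genes are 59 to 75 bases long, and reads of a mature tRNA cannot be told apart from those of a longer RNA that still contains it.

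**Figure D5:**
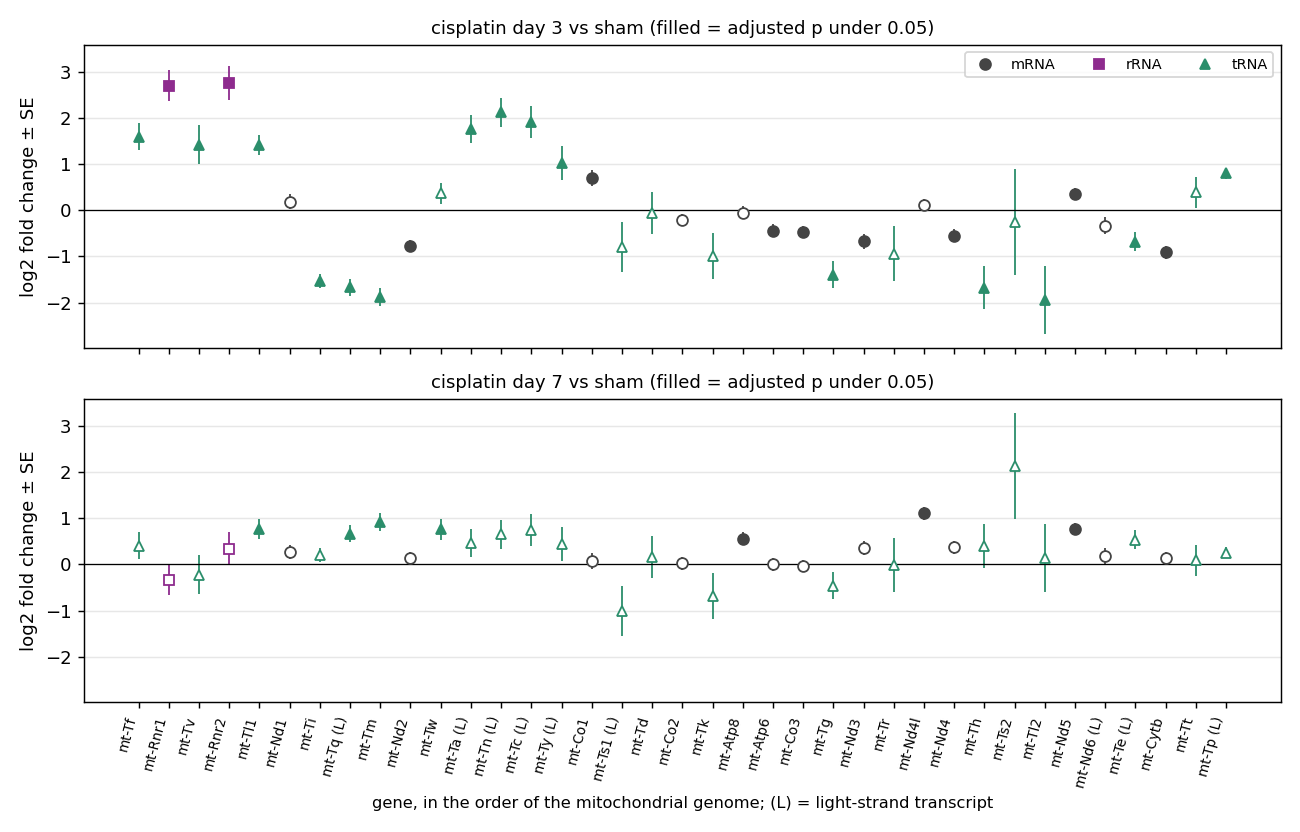
Log2 fold changes with standard errors (limma) of all 37 transcripts in the order of the mitochondrial genome, day 3 against sham above and day 7 against sham below, with filled symbols for adjusted p under 0.05 and (L) for light-strand transcripts. At day 3 the values alternate along the genome, from 2.76 at mt-Rnr2 to -1.95 at mt-Tl2, and at day 7 the called values lie between 0.56 and 1.11.

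Nuclear genes that serve mitochondrial RNA were called in both directions. The counts of this list and the next 5 stand beside 39.3% of all tested genes called higher and 20.6% lower at day 3, and 19.3% higher and 10.4% lower at day 7. Each list has few genes, and nothing particular to one is read from its count. After the GC correction at day 7 at most 2 genes rose and at most 2 fell in any of the 6 lists. Of 11 tested genes of mitochondrial transcription, 3 rose and 3 fell at day 3, and 5 rose and 1 fell at day 7. With median-of-ratios scaling 1 rose and 4 fell at day 3, so the balance there depends on scaling. Tfam, the factor that packages mitochondrial DNA and starts transcription, had 10.1, 8.88 and 7.83 FPKM at day 3, 10.9, 11.3 and 10.9 FPKM at day 7 and 6.94, 6.12 and 6.67 FPKM in sham, with every cisplatin library above sham. Tfam rose at day 3 (log2 fold change 0.39 ± 0.11 SE, adjusted p = 0.0156) and day 7 (log2 fold change 0.67 ± 0.11 SE, adjusted p = 0.00379). The day 3 rise was lost without sham library 2 and with median-of-ratios scaling, and turned to -0.05 after GC correction (adjusted p over the alternatives up to 0.681). Polrmt, the mitochondrial RNA polymerase, had 3.87, 4.52 and 4.16 FPKM at day 3, 4.0, 4.31 and 3.86 FPKM at day 7 and 7.04, 7.39 and 5.89 FPKM in sham and fell at both times (log2 fold change -0.58 ± 0.11 SE, adjusted p = 0.00212 at day 3 and log2 fold change -0.62 ± 0.11 SE, adjusted p = 0.0054 at day 7). Tfb2m, which opens the promoter, had 11.6, 12.7 and 14.8 FPKM at day 3, 13.9, 15.9 and 13.8 FPKM at day 7 and 9.9, 7.45 and 9.69 FPKM in sham and rose at both (0.49 and 0.64, adjusted p = 0.0144 and 0.011). The day 3 rise of Tfb2m was lost without sham library 2 or day 3 library 3 and with median-of-ratios scaling (adjusted p over the alternatives up to 0.674).

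Of 23 genes of RNA processing and stability, 8 rose and 4 fell at day 3, and 10 rose and 2 fell at day 7. With median-of-ratios scaling 6 rose and 10 fell at day 3. Lrpprc, which holds mitochondrial mRNAs stable, had 5.78, 3.5 and 4.38 FPKM at day 3, 13.8, 14.2 and 14.3 FPKM at day 7 and 6.26, 7.09 and 7.75 FPKM in sham, lowest at day 3 and highest at day 7 without overlap. Lrpprc fell at day 3 (log2 fold change -0.55 ± 0.15 SE, adjusted p = 0.0134), a call lost when nuclear genes were scaled to equal sums (adjusted p up to 0.0684), and rose at day 7 (log2 fold change 0.91 ± 0.15 SE, adjusted p = 0.00393). Subunits of mitochondrial RNase P, the enzyme that cuts tRNA 5′ ends, differed in direction. Trmt10c had 9.99, 14.01 and 15.3 FPKM at day 3, 8.91, 8.82 and 6.67 FPKM at day 7 and 3.72, 3.67 and 3.98 FPKM in sham and rose at day 3 (log2 fold change 1.54 ± 0.17 SE, adjusted p = 9.34e-05). Hsd17b10 had 49.2, 42.9 and 41.1 FPKM at day 3, 51.96, 47.7 and 47.9 FPKM at day 7 and 84.99, 91.6 and 74.9 FPKM in sham and fell at both times (-0.90 at day 3 and -0.75 at day 7, adjusted p = 0.00023 and 0.00292). The remaining subunit, listed as 1110008L16Rik, fell at day 3. Its levels were 2.55, 1.83 and 1.93 FPKM at day 3, 4.13, 4.23 and 4.76 FPKM at day 7 and 4.19, 3.62 and 3.66 FPKM in sham. Pde12, which removes poly(A) from mitochondrial RNA, rose at day 3 (1.33 ± 0.18 SE, adjusted p = 0.000254), and Pnpt1, an exoribonuclease, rose at day 7 (0.93 ± 0.14 SE, adjusted p = 0.00255).

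Of 19 mitochondrial tRNA synthetases, 3 rose and 5 fell at day 3, and 6 rose and 2 fell at day 7. The rises at day 3 were Mars2, Kars and Gars, and Kars was among the falls at day 7. Kars and Gars encode the cytosolic enzyme as well, so their levels are not those of a mitochondrial synthetase alone. Median-of-ratios scaling gave 1 rise and 9 falls at day 3, and 3 rises and 3 falls at day 7. Fars2, for phenylalanine, had 1.69, 1.98 and 1.87 FPKM at day 3, 6.39, 6.1 and 6.16 FPKM at day 7 and 7.37, 8.95 and 8.47 FPKM in sham and fell at day 3 (log2 fold change -1.70 ± 0.10 SE, adjusted p = 7.92e-06), and Rars2, for arginine, rose at day 7 (0.84 ± 0.17 SE, adjusted p = 0.00868). Of 21 tRNA and rRNA modification genes, 9 rose and 3 fell at day 3, and 3 rose and 1 fell at day 7. Quantile normalization gave 5 rises and 6 falls at day 3, and nuclear scaling 8 rises at day 7. Mrm2, a methyltransferase of the 16S rRNA, had 3.3, 2.51 and 2.86 FPKM at day 3, 6.41, 6.26 and 5.12 FPKM at day 7 and 6.38, 6.91 and 6.2 FPKM in sham and fell at day 3 (log2 fold change -0.95 ± 0.12 SE, adjusted p = 0.000229). Trnt1, which adds the CCA end to tRNAs, rose at day 3 (0.99 ± 0.24 SE, adjusted p = 0.0071). Of 16 replication and nucleoid genes, 4 rose and 1 fell at day 3, and 2 rose and 0 fell at day 7, while median-of-ratios scaling gave 2 rises and 6 falls at day 3 and 1 rise and 3 falls at day 7. Rrm2b, a p53-induced ribonucleotide reductase subunit that feeds mitochondrial DNA synthesis, had 3.4, 3.81 and 3.19 FPKM at day 3, 3.76, 3.58 and 3.12 FPKM at day 7 and 1.78, 1.47 and 1.76 FPKM in sham and rose at both times (0.74 and 0.75, adjusted p = 0.000526 and 0.00261).

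Regulators of mitochondrial biogenesis were called in both directions at day 3. Of 9 tested, 3 rose and 4 fell at day 3, and 4 rose and 0 fell at day 7, where median-of-ratios scaling and quantile normalization each gave 3 rises and 1 fall and the GC correction called 0 genes of the list. Ppargc1a, which encodes the coactivator PGC-1 alpha, had 4.6, 4.54 and 2.5 FPKM at day 3, 10.1, 12.8 and 10.97 FPKM at day 7 and 5.56, 5.65 and 6.03 FPKM in sham, lowest at day 3 and highest at day 7. It fell at day 3 (log2 fold change -0.50 ± 0.19 SE, adjusted p = 0.0442) and rose at day 7 (log2 fold change 0.86 ± 0.19 SE, adjusted p = 0.0103), and at day 7 it was 1.36 ± 0.19 SE above day 3 on the log2 scale (adjusted p = 0.000367). The day 3 fall was lost without any 1 of the sham libraries, day 3 library 3 or any day 7 library (adjusted p over all alternatives up to 0.164). Esrra, a nuclear receptor that acts with it, had 11.7, 12.3 and 6.21 FPKM at day 3, 14.7, 17.2 and 17.9 FPKM at day 7 and 18.5, 21.8 and 20.97 FPKM in sham and fell at day 3 (log2 fold change -1.001 ± 0.22 SE, adjusted p = 0.00423). Gabpa, a subunit of nuclear respiratory factor 2, had 7.22, 7.67 and 8.18 FPKM at day 3, 7.17, 8.64 and 8.11 FPKM at day 7 and 2.6, 3.37 and 3.8 FPKM in sham and rose at both times (1.04 and 1.08, adjusted p = 0.000212 and 0.00163). With the GC correction, the day 7 calls of Tfam, Tfb2m, Ppargc1a, Gabpa, Polrmt, Trmt10c, Pnpt1, Rars2 and Rrm2b and the day 3 calls of Trnt1 and Rrm2b were lost.

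Nuclear subunits of the same respiratory complexes were mostly lower at day 3. Of 37 complex I subunits, 32 fell and 2 rose at day 3 (median log2 fold change -0.72), beside 3 falls and 1 rise among the 7 mitochondrial ones. Of 11 complex IV subunits 10 fell and 0 rose (median -0.67), of 9 complex III subunits 8 fell (median -0.76) and of 15 ATP synthase subunits 13 fell (median -0.83). Over all tested genes 20.6% were called lower at day 3. Ndufs8, of the complex I matrix arm, had 49.7, 38.8 and 39.1 FPKM at day 3, 81.3, 91.3 and 102 FPKM at day 7 and 134, 119.9 and 128 FPKM in sham and fell at day 3 (log2 fold change -1.57 ± 0.14 SE, adjusted p = 3.06e-05). Cox4i1, of complex IV, had 183, 233 and 206 FPKM at day 3, 426, 253 and 299 FPKM at day 7 and 579.7, 417 and 542 FPKM in sham, and its day 3 fall was -1.30 ± 0.21 SE (adjusted p = 0.000796). Atp5g1, a c-ring subunit of ATP synthase, fell at day 3 (-1.46, adjusted p = 0.000147), and Uqcr11 of complex III did too (-1.64, adjusted p = 1.64e-05). The difference between nuclear and mitochondrial subunits was not tested. Under the 5 other scalings and corrections run on these lists, 27 to 35 complex I subunits fell at day 3. With nuclear genes scaled to equal sums 6 complex IV and 5 complex III subunits fell. Over all tested genes 10.4% were called lower and 19.3% higher at day 7. In complex III 4 subunits fell and 2 rose then, and in complex IV and ATP synthase 4 fell and 1 rose each. At day 7, 15 complex I subunits fell and 4 rose (median -0.17). With nuclear genes scaled to equal sums 8 of them fell and 4 rose (median 0.04), and with the GC correction 4 fell and 1 rose. Ndufs1 was among the rises, with 10, 8.63 and 9.0 FPKM at day 3, 35.2, 36.95 and 39.4 FPKM at day 7 and 11.7, 17.9 and 22.4 FPKM in sham (log2 fold change 1.10 ± 0.20 SE, adjusted p = 0.00517).

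Markers of several kidney cell types were called at day 3, where 20.6% of all tested genes were called lower and 39.3% higher. All 10 proximal tubule markers fell at day 3, and their summed FPKM was 520, 618 and 763 at day 3, 4671, 4460 and 4997 at day 7 and 3870, 6111 and 6226 in sham. All 5 thick ascending limb markers fell at day 3, with sums of 144 to 548 at day 3, 1281 to 1449 at day 7 and 1075 to 1636 in sham, and 6 of 8 distal tubule and collecting duct markers fell, with sums of 63.2 to 145 at day 3, 328 to 408 at day 7 and 277 to 381 in sham. Of 9 leukocyte markers 4 were tested, of which 3 rose and 1 fell at day 3, and the sum of the list was 120 to 204 at day 3, 15.4 to 39.7 at day 7 and 21.4 to 28.8 in sham. The 5 podocyte markers summed to 45.1 to 93.8 at day 3, 78.0 to 108 at day 7 and 88.3 to 105 in sham. Of these 5, 1 fell at day 3 and 1 at day 7, where 10.4% of all tested genes were called lower at day 7. All 4 tested red cell markers fell at day 3. Red cell markers summed to 4.31 to 10.7 at day 3, 20.2 to 343 at day 7 and 100 to 130 in sham, and fat and muscle markers to at most 0.99 in any library. No marker of the tubule segments or podocytes was at 0. Day 3 marker sums of proximal tubule were below sham in all libraries. The part of these shifts in the mitochondrial results was not tested, and in bulk RNA fewer cells of a type and less RNA per cell cannot be told apart.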

How the data were processed

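The authors made the deposited values from directional libraries of whole kidney RNA and deposited FPKM per gene for each of 9 libraries (3 per group). The submitters' processing notes name HISAT, StringTie, FastQC 0.10.1 and GRCm38. No counts or depths are given. A rough estimate of what 1 fragment is worth, from low FPKM of noncoding genes of 600 to 1200 bases, puts a library at 18600000 to 24200000 fragments, and it entered no test. Of the strand setting, rRNA handling and treatment of multiply mapping reads nothing was stated. FPKM are relative to the library, so no absolute RNA amount is measured.

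The 55385 Ensembl IDs were matched to GENCODE M21 on GRCm38 (55144 had a symbol), and transcript sequences, lengths and coordinates were read from it. Here log2(FPKM + 1) was fitted with limma 3.58.1 in R 4.3.3 over 13718 genes that reached 1 FPKM in 3 or more libraries, with 3 groups, a mean-variance trend and Benjamini-Hochberg adjustment over all tested genes (threshold 0.05). Fold changes on this scale understate the change of low genes. Shares, ratios and composition were compared with exact two-sided permutation tests in SciPy 1.17.1. Nuclear near copies were found with blastn 2.17.0 of the mitochondrial transcripts against annotated nuclear transcripts (at least 200 bases and 95% identity). A search of the nuclear genome had been planned, and no genome sequence was used here. The fit was tested on simulated data with the same groups.

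The 37 members are named by annotation, and they, the nuclear lists and the markers were chosen with earlier results of these data known. By the naming rule up to 3 called genes per nuclear list, direction and comparison qualified, 88 in all, and the text prints some of the largest and those with a role that is explained. Tfam, Polrmt, Tfb2m, Lrpprc and Ppargc1a, and near copies above 1 FPKM, were named whatever they did. Alternatives changed the pseudocount (0.1), the filter (none, or 5 FPKM), the scaling, a GC and length correction, the replicate block and near copies, and left out each library in turn. The labels call the libraries biological repeats.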

Additional observations from a re-analysis of the deposited data

Results flagged for a closer look

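The 2 cisplatin times differed in the level of 27 of the 37 mitochondrial transcripts, by limma with adjustment over all tested genes, where 55.4% of all tested genes were called. Since both times are set against the same sham libraries, this contrast of day 7 with day 3 is also the difference between the effects at the 2 times. Of the mRNAs 10 were higher at day 7, with log2 fold changes of day 7 over day 3 as follows: mt-Nd2 (0.91), mt-Atp8 (0.61), mt-Atp6 (0.46), mt-Co3 (0.43), mt-Nd3 (1.03), mt-Nd4 (0.93), mt-Nd5 (0.41), mt-Nd6 (0.51), mt-Cytb (1.05) and mt-Nd4l (0.99). The exception among called mRNAs, lower at day 7, was mt-Co1 (-0.62). Both rRNAs were lower at day 7, mt-Rnr1 (-3.04) and mt-Rnr2 (-2.42). Among the tRNAs 7 were higher at day 7, mt-Ti (1.73), mt-Tq (2.34), mt-Tm (2.80), mt-Tg (0.94), mt-Th (2.07), mt-Tl2 (2.09) and mt-Te (1.21). A further 7 tRNAs were lower at day 7, mt-Tf (-1.18), mt-Tv (-1.64), mt-Tl1 (-0.64), mt-Ta (-1.30), mt-Tn (-1.47), mt-Tc (-1.17) and mt-Tp (-0.54). In each of these 27 transcripts the day 7 and day 3 libraries did not overlap, where the FPKM of 64.4% of all tested genes did not. The 27 were taken as called in this same contrast, so the lack of overlap adds no support. Groups of 3 libraries are too small for a test of single deviating libraries, so none was made.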

How the results depend on the processing

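Of the 25 mitochondrial transcripts called at day 3 against sham, 9 were called in all 22 alternatives and 19 in all 9 fits that leave out 1 library. At day 7 against sham 0 of 7 were called in all 22 and 3 in all 9, and at day 7 against day 3 the numbers were 13 and 19 of 27. The 8 that lost a call there in a fit without 1 library were mt-Nd5, mt-Nd6, mt-Atp6, mt-Co3, mt-Tl1, mt-Tc, mt-Tg and mt-Tl2. The numbers below count calls in both directions.

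Without a filter on low values 0 mRNAs were called at day 3, 1 mRNA and 1 tRNA at day 7 and 2 mRNAs at day 7 against day 3. Of the 32394 genes then tested 7233 were called higher and 2890 lower at day 3, and 2099 and 972 at day 7. At day 7 against day 3 the counts were 3289 and 6211. Without the filter at day 3 limma left 1 mRNA with an unadjusted p under 0.05. A filter at 5 FPKM, which tests fewer genes, called 5104 genes of the whole table at day 3 and 4973 at day 7 against day 3. Quantile normalization called 5 mRNAs at day 3, 2 mRNAs (1 of them lower) and 1 rRNA at day 7 and 4 mRNAs at day 7 against day 3, and gave mt-Atp6 a log2 fold change of -0.42 at day 7. It called 4104 genes of the whole table higher and 3905 lower at day 3, and 2243 higher and 2011 lower at day 7. At day 7 against day 3 it called 3811 higher and 3845 lower. Median-of-ratios scaling called 2 tRNAs at day 7, where it called 2245 genes of the whole table higher and 2227 lower. Scaling the genes outside the mitochondrial set to equal sums called 6 mRNAs and 7 tRNAs at day 7. There it called 3642 genes of the whole table higher and 652 lower. Adding the near copies with that scaling called 5 mRNAs at day 3, and 6 mRNAs and 9 tRNAs at day 7.

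The correction for GC content and length, under which mitochondrial genes lie at the low end of GC content, called 918 genes of the whole table at day 7, with 1 mRNA and 0 tRNAs (4 tRNAs had an unadjusted p under 0.05 in limma). With the replicate block as well it called 469 genes, 0 mRNAs (1 at an unadjusted p under 0.05) and 1 tRNA. Either way the day 3 log2 fold changes turned negative for mt-Nd5 (-0.121), mt-Nd4l (-0.501), Gm28439 (-0.488), Gm10222 (-0.54) and Tfam (-0.0524). The cause of these changes was not tested.

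Leaving out 1 library gave 2470 to 4719 calls over the whole table at day 7, where sham library 2 and day 3 library 1 gave the ends. It gave 1 to 6 tRNA calls at day 7 and 7 to 11 mRNA calls at day 7 against day 3.

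With the replicate number as a block 8212 genes were called at day 3 (7 mRNAs, 2 rRNAs and 16 tRNAs), 3885 at day 7 (3, 0 and 4) and 7540 at day 7 against day 3 (8, 2 and 13). Libraries with the same number correlated in their deviations at -0.054 to 0.238, and of 6 libraries in each pair of groups 4 correlated best with their own number for day 3 and sham, 4 for day 7 and sham and 1 for day 7 and day 3. Not every pair exceeded 0.1 and the labels name no shared litter or day, so the numbers were not taken to pair the samples.

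Counted over protein-coding and mitochondrial genes alone, the difference in share was 5.11 percentage points for all mitochondrial genes at day 3, 6.83 at day 7, 6.44 for the mRNAs at day 7, 3.23 for the rRNAs at day 3, -3.23 for the rRNAs at day 7 against day 3 and 0.394 for the tRNAs at day 7. Without the near copies the differences at day 7 were 7.23 for all, 6.83 for the mRNAs and 0.394 for the tRNAs, and 6.4 for the mRNAs against day 3. With near copies counted as mitochondrial they were 6.7 for all and 6.37 for the mRNAs at day 7. Leaving genes out makes the sum that a share is taken of smaller. Counting the near copies as mitochondrial keeps that sum and makes the mitochondrial part larger.

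Depth is known only as a rough estimate, FPKM are given to 2 decimals, and weak tRNAs such as mt-Tf and mt-Tv rest on few fragments.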
